A study of Mus musculus with 10 samples.

Results

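The BMP ligands Bmp2, Bmp4 and Bmp7, the receptor Bmpr1a, the BMP antagonists Grem1 and Chrdl1, and the Id target genes Id1, Id2 and Id3 were followed in the colon during T-cell transfer colitis. These 9 genes were chosen by name, and every probe set annotated to 1 of them alone was taken. That gave 21 of the 34945 probe sets with 1 gene, and 9 of 18193 genes, with 0 probe sets shared between a member and another gene. A probe set is a group of short probes on the array that measures 1 stretch of a transcript. Values are on a log2 scale, so that a difference of 1 is a doubling, and a level of 1 probe set is not compared with that of another.

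RNA was measured in the distal colon, from the rectum to the junction with the proximal colon, of 10 mice, 1 Affymetrix whole-genome mouse array per mouse. All animals were C57BL/6 mice of genotype Rag1-/-, which make no T or B cells of their own, and all were given T cells at 10 weeks of age. The 4 control mice received Treg cells, and the 6 inflamed mice received naïve T cells, which bring on colitis in this host. The labels divide the inflamed colons into 3 severe and 3 moderate ones. Tissue was taken 2 to 3 months after the transfer, at an age of 4 to 5 months. The controls therefore carried the same deletion as the inflamed mice and had also been injected with T cells, and neither untreated mice nor wild-type mice were among the 10. The tissue was whole colon, so that fewer cells of a type and less RNA per cell cannot be told apart in any value that follows. Epcam, Cdh1, Krt8 and Cdx2, which mark colonic epithelium, were measured at mean log2 levels of 13.85, 12.77, 14.31 and 10.56, all far above the array medians of 5.36 to 5.40.

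Bone morphogenetic proteins are secreted dimers that bind pairs of type I and type II receptor kinases, which phosphorylate Smad proteins that enter the nucleus with Smad4. In the colon they are made largely by cells of the connective tissue and muscle around the crypts and by mature epithelium, and they favour differentiation towards the crypt top. Antagonists made beneath the crypt base, Grem1 among them, bind the ligands and keep signalling low around the stem cells. Id1, Id2 and Id3 are classical target genes and encode helix-loop-helix proteins without a DNA-binding region, which hold E proteins off DNA.

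Of the 9 members, 1 was higher in inflamed than in control colon (Id2), 4 were lower (Bmp2, Bmp4, Bmpr1a and Chrdl1) and 4 did not pass the test (Bmp7, Grem1, Id1 and Id3). The test was limma's moderated test of 6 inflamed against 4 control arrays, two-sided, and a gene was called when its Benjamini-Hochberg adjusted p over all genes was under 0.05. By the same rule 39.7% of all genes were called, 18.5% higher and 21.2% lower, so that calls were common in this tissue and the 5 of 9 members stand against that share. For the same 5 members the control values lay wholly apart from the inflamed ones, as they did for 31.7% of all genes. The median difference of the members was -0.07, and that of all genes was 0.03. Each further adjusted p is from the same limma fits.

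**Figure D1:**
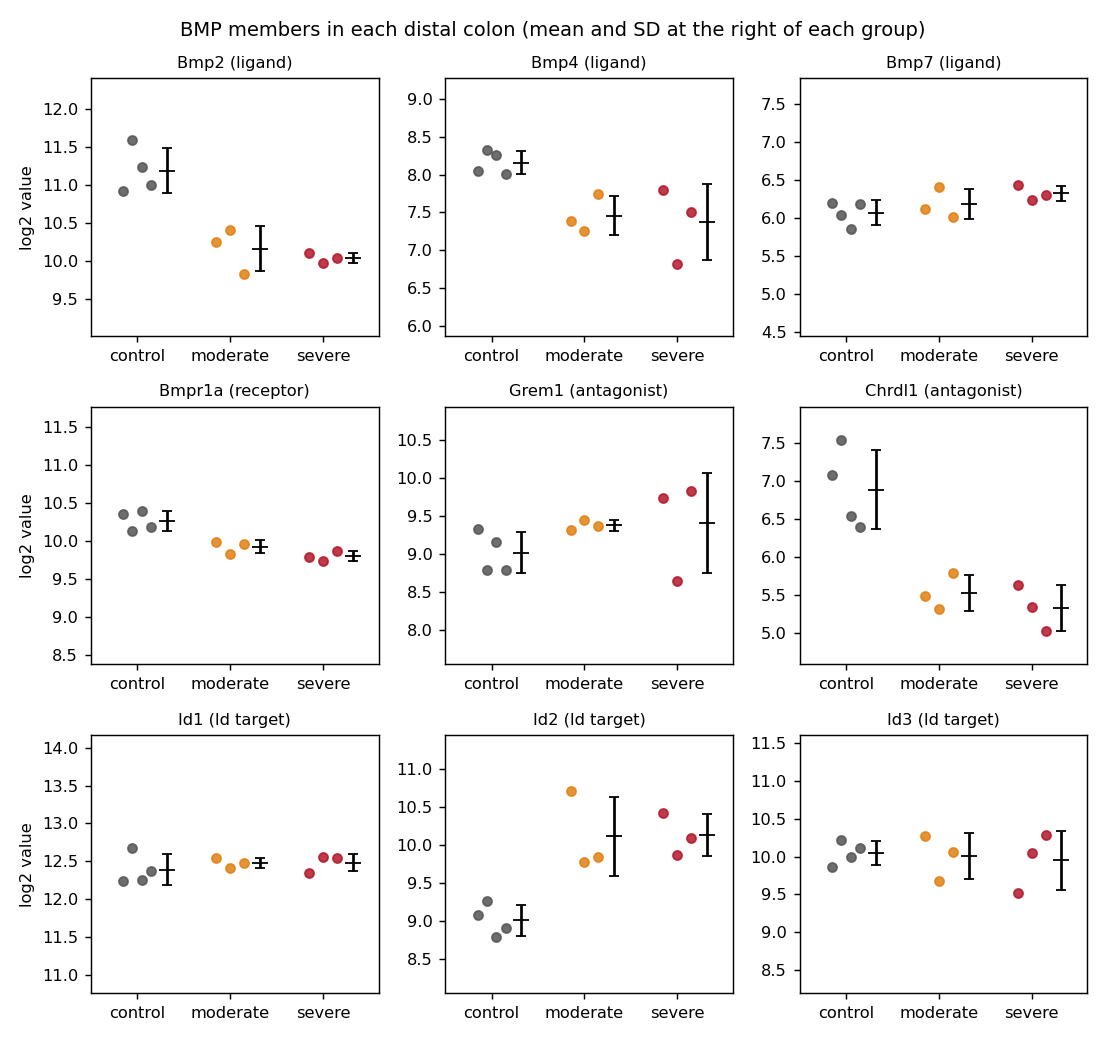
Each panel plots the log2 value of 1 member gene, on an axis spanning the same number of log2 units in every panel, in 4 control, 3 moderate and 3 severe colons, 1 point per mouse, with the mean and SD of each group as a bar beside it. Bmp2, Bmp4, Bmpr1a and Chrdl1 sit lower and Id2 sits higher in every inflamed colon than in every control, and the groups overlap for Bmp7, Grem1, Id1 and Id3.

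Bmp2, a ligand found in mature colonic epithelium, was lower in every inflamed colon. It stood at 10.92, 11.59, 11.24 and 11.00 in the 4 controls. The 3 severe colons had 10.10, 9.97 and 10.03, within a narrow band. The 3 moderate colons had 10.25, 10.41 and 9.83. The highest inflamed value, 10.41 in a moderate colon, lay below the lowest control value. Bmp2 fell by 1.09 on the log2 scale (SE 0.14, 95% interval -1.40 to -0.78), a 2.13-fold lower level, with an adjusted p of 9.83e-05.

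Bmp4, a ligand of the connective tissue cells around the crypts, was at 8.05, 8.32, 8.26 and 8.01 in the controls. The severe colons had 7.80, 6.82 and 7.51, which was both the highest and the lowest inflamed value. The moderate colons had 7.38, 7.25 and 7.75. All inflamed colons were below all controls, and the SD among them, 0.36 (n = 6), was larger than that among controls, 0.16 (n = 4). Bmp4 fell by 0.74 (SE 0.17), or 1.67-fold, with an adjusted p of 0.00424.

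Bmp7, the third ligand, did not pass. Its brightest probe set was at 6.20, 6.04, 5.86 and 6.19 in the controls, at 6.43, 6.24 and 6.31 in the severe colons, and at 6.13, 6.41 and 6.02 in the moderate colons. The severe colons were all above the controls, while the moderate ones overlapped them. The difference of inflamed from control was 0.18 (95% interval -0.04 to 0.40), with an adjusted p of 0.170, and that of the severe colons alone was 0.26, with an adjusted p of 0.121. The other 2 probe sets differed by 0.17 and 0.24, and 1 of them was below the lower quartile of the array in 9 of 10 colons.

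Bmpr1a encodes a type I receptor for Bmp2 and Bmp4. Its brightest probe set stood at 10.35, 10.13, 10.40 and 10.19 in the controls. The severe colons had 9.80, 9.74 and 9.87, and the moderate colons had 9.99, 9.83 and 9.96, so that the groups did not overlap. This probe set fell by 0.40 (SE 0.08), or 1.32-fold, with an adjusted p of 0.00155. The gene has 6 probe sets, and they did not give 1 answer. A second one also passed, with a difference of -0.21 and an adjusted p of 0.0415, while 3 others had differences of -0.13, -0.16 and -0.20 and did not pass. The last, below the lower quartile on all 10 arrays, differed by 0.19 in the other direction and did not pass. With the mean over the 6 probe sets as the value of the gene, the difference was -0.15 with an adjusted p of 0.0572, so the call for Bmpr1a rests on the choice of probe set.

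**Figure D2:**
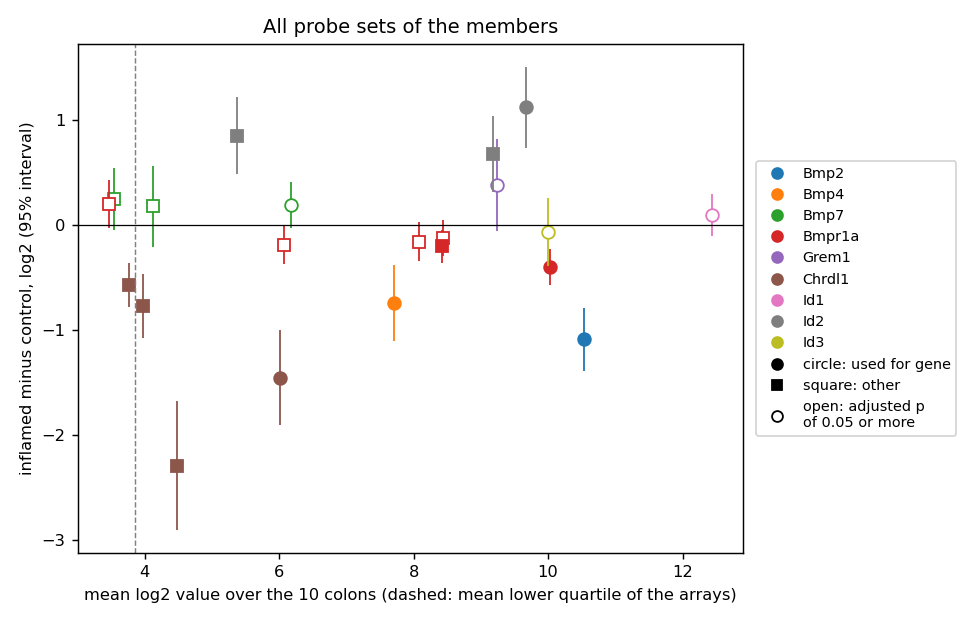
Each point is 1 of the 21 member probe sets, with its mean log2 value over 10 colons on the x axis and its inflamed minus control difference in log2 units with a 95% interval on the y axis. The 4 probe sets of Chrdl1 lie below 0 and the 3 of Id2 above 0, whereas the 6 of Bmpr1a run from -0.40 to 0.19.

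Taken as separate features, 3 of the 21 member probe sets were called higher and 8 lower, and 10 were not called. That is 52.4% called, where 35.8% of all probe sets with 1 gene were. The 3 higher ones all belong to Id2, and the 8 lower ones are 1 each of Bmp2 and Bmp4, 2 of Bmpr1a and 4 of Chrdl1. Probe sets of 1 gene share its RNA and are not separate observations of it.

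The 2 antagonists differed from each other in their values. Grem1, the antagonist known from the muscle layers and from connective tissue cells near the crypt base, did not pass the test. It was at 9.33, 8.79, 9.17 and 8.79 in the controls. The moderate colons were close together at 9.32, 9.46 and 9.37. The severe colons were far apart at 9.74, 8.65 and 9.84, so that 1 severe colon lay below all controls and the other 2 above them. The difference of inflamed from control was 0.38 (95% interval -0.08 to 0.83), with an adjusted p of 0.174. Without severe replicate 2, the lowest array at 8.65, the difference of Grem1 was 0.52 with an adjusted p of 0.0169. That of the severe colons alone, then only 2, was 0.77 with an adjusted p of 0.00417. Under the other 21 of the 22 alternatives described below, Grem1 passed in neither comparison.

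Chrdl1, which encodes chordin-like 1, a secreted protein that binds BMP4 and other ligands, had the largest difference of the 9 members. It stood at 7.07, 7.54, 6.54 and 6.39 in the controls, the widest spread of any member among controls (SD 0.52, n = 4). The severe colons had 5.63, 5.34 and 5.02, and the moderate colons had 5.48, 5.31 and 5.79. Chrdl1 fell by 1.46 (SE 0.21, 95% interval -1.92 to -0.99), or 2.75-fold, with an adjusted p of 0.000223. All 4 of its probe sets were lower, by 1.46 in the one used and with differences of -2.29, -0.78 and -0.57 in the others. In each of these 3, inflamed values reached down below the lower quartile of the array, where a difference is measured poorly.

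Among the Id targets, Id2 was higher in every inflamed colon and Id1 and Id3 did not pass. Id2 was at 9.07, 9.26, 8.78 and 8.91 in the controls. It was at 10.42, 9.87 and 10.09 in the severe colons and at 10.71, 9.78 and 9.85 in the moderate colons. The lowest inflamed value exceeded the highest control by more than the SD among controls, 0.21 (n = 4). Id2 rose by 1.12 (SE 0.18, 95% interval 0.72 to 1.51), or 2.17-fold, with an adjusted p of 0.000446. Its other 2 probe sets rose by 0.67 and 0.85, with adjusted p of 0.0072 and 0.00171.

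Id1, the Id gene most often read as a sign of BMP signalling, stood at 12.25, 12.68, 12.26 and 12.38 in the controls. The severe colons had 12.35, 12.55 and 12.55 and the moderate colons 12.54, 12.41 and 12.48, all inside the control range. The difference was 0.09 (95% interval -0.11 to 0.29), with an adjusted p of 0.471. Its probe set was bright, with a mean log2 level of 12.44, and bright probe sets can understate a difference. Id3 had 9.87, 10.22, 9.99 and 10.12 in the controls, 9.52, 10.05 and 10.29 in the severe colons and 10.28, 9.68 and 10.06 in the moderate colons. The inflamed colons reached both above and below the controls, and the difference was -0.07 (95% interval -0.40 to 0.26), with an adjusted p of 0.747.

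Id4, the remaining Id gene, is not a member and is listed among the other targets of the pathway. It was at 9.65, 9.52, 9.83 and 9.38 in the controls, at 7.39, 7.46 and 7.90 in the severe colons, and at 8.34, 7.63 and 8.70 in the moderate colons. Id4 fell by 1.69 (SE 0.24), or 3.23-fold, with an adjusted p of 0.000162, and its 3 probe sets had differences of -1.69, -1.91 and -0.92. The 4 Id genes thus had 1 rise, 1 fall and 2 differences that did not pass. The E proteins that Id proteins bind did not pass either. Tcf3 differed by 0.21, Tcf4 by -0.25 and Tcf12 by -0.12, with adjusted p of 0.124, 0.0826 and 0.189. The probe sets of Tcf4 had both signs, from -0.27 to 0.19, and none of them passed.

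The 250 bases before the gene start are shown for the Id genes found in the RefSeq promoter table, because these genes are targets of the same Smad proteins and differed in direction. The build is GRCm38.p6, the bases run 5′ to 3′ on the strand of the gene, and capitals mark GGCGCC, a GC-rich sequence that BMP-regulated Smad proteins can bind. Id2, higher in inflamed colon, lies on the minus strand with this window at chr12:25096093-25096342. Id3, which did not pass, lies on the plus strand with the window at chr4:136143572-136143821. Id4, lower in inflamed colon, lies on the plus strand with the window at chr13:48260866-48261115.
Id2: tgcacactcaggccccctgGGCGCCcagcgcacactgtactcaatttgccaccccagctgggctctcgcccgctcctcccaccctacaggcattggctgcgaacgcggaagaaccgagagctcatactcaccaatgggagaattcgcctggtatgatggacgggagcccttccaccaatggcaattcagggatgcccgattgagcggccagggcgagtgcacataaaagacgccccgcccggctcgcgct
Id3: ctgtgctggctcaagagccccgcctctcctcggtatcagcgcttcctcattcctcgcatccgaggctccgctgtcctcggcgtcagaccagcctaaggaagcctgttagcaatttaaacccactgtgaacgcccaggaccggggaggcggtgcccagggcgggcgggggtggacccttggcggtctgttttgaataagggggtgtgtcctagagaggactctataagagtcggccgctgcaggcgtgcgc
Id4: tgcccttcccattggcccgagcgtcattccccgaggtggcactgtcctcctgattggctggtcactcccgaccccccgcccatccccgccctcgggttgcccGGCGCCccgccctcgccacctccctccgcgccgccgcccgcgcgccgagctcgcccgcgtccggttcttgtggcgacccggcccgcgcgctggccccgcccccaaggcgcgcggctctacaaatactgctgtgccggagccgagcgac

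GGCGCC occurred 1 time before Id2, with its first base 231 bases before the start, 1 time before Id4, at 148 bases, and 0 times before Id3. It reads the same on both strands, and it was found in 9.59% of 32851 mouse promoter windows of this length. The other members with an entry were Bmpr1a and Grem1, with 1 match each, and Bmp4, with 0. The Bmpr1a window, chr14:34502547-34502796 on the minus strand, lies inside the annotated gene, which runs to 34503336. GTCT, the short Smad-binding sequence, was searched on both strands as well and occurred 1 time before Id2, 2 times before Id3 and 0 times before Id4. It was present in 82.9% of all windows. Id2, which rose, and Id4, which fell, thus had the same GGCGCC count in these windows, while their GTCT counts differed, at 1 and 0. Sequence outside these windows was not searched, so the counts cannot speak to Smad control of these genes. A match in letters is not a bound site, and Smad binding was not tested.

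The division into severe and moderate colons asks whether the members follow the degree of inflammation. Severe colons differed from control with 1 member higher and 4 lower, where 16.1% and 18.9% of all genes were called. Moderate colons differed from control with 1 member higher and 4 lower, where 13.2% and 16.7% of all genes were. In both comparisons these were Id2 and, lower, Bmp2, Bmp4, Bmpr1a and Chrdl1; the comparisons share their 4 controls. Bmp2 differed by -1.16 in severe and -1.03 in moderate colons, with adjusted p of 0.000429 and 0.00125. Bmp4 differed by -0.79 and -0.70, with adjusted p of 0.0127 and 0.0266. The moderate value of Bmp4 was the least firm, and its adjusted p was 0.0655 without control replicate 2, 0.0645 without control replicate 3, 0.0794 without moderate replicate 1 and 0.094 without moderate replicate 2. By the methods' t-test, adjusted over all genes, the adjusted p of Bmp4 in severe colons was 0.0801.

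Bmpr1a differed by -0.46 in severe and -0.34 in moderate colons, with adjusted p of 0.00232 and 0.0160, and the latter was 0.0623 without moderate replicate 2 and 0.0524 by the methods' t-test. With the mean over its probe sets, Bmpr1a passed in neither, with adjusted p of 0.0733 and 0.222. Chrdl1 differed by -1.56 and -1.36, with adjusted p of 0.000836 and 0.00256. Id2 differed by 1.12 and 1.11, with adjusted p of 0.00253 and 0.00362, and the latter was 0.0505 by the methods' t-test.

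Compared with each other, severe and moderate colons differed in 0 members. The differences of severe from moderate ran from -0.20 for Chrdl1, with a 95% interval of -0.80 to 0.41, to 0.14 for Bmp7, with an interval of -0.14 to 0.42. For Id2 the difference was 0.02 (95% interval -0.51 to 0.54) and for Bmp2 it was -0.13 (95% interval -0.53 to 0.28). With 3 arrays per group, these intervals leave room for differences in either direction. Among all genes limma called 0 (0%) in this comparison. At an unadjusted p under 0.05, limma had 922 genes and the methods' t-test 643, with 0 members in either, and the lowest member p was 0.225 by limma.

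**Figure D3:**
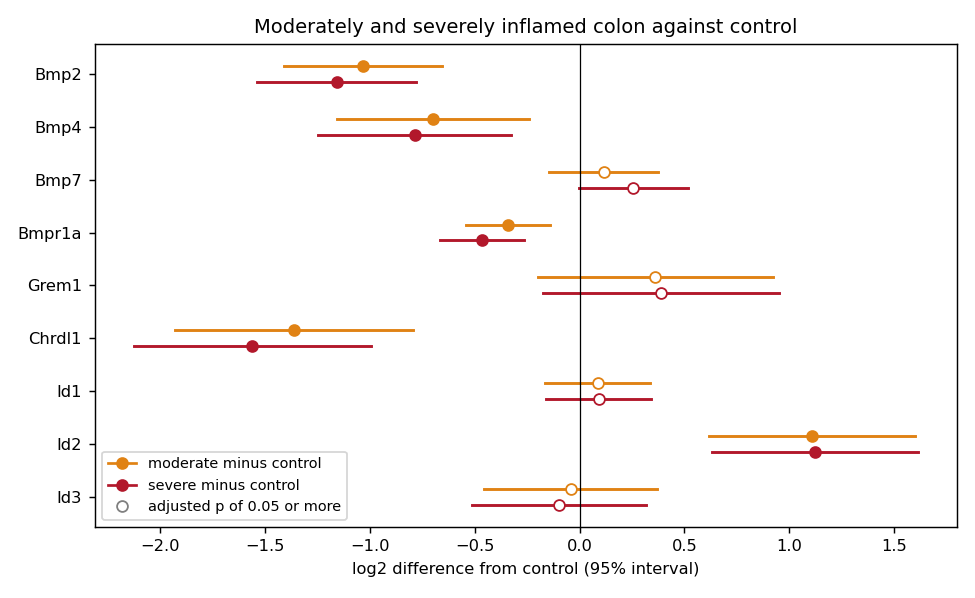
Differences of moderate and of severe colons from the 4 controls in log2 units, with 95% intervals, are plotted for the 9 members, with open points where the adjusted p was 0.05 or more. The intervals of moderate and severe colons overlap for every member, with Bmp2 at -1.03 and -1.16 and Id2 at 1.11 and 1.12.

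Other genes of the BMP pathway were taken from a written list of 65, of which 61 were measured by a probe set of their own. In inflamed colon 6 of the 61 were higher, 18 lower and 37 did not pass, a share of 39.3% called that is close to that of all genes. By direction, 18.5% of all genes were called higher and 21.2% lower. The median difference of the list was -0.06, against 0.03 over all genes. In 17 of the 61 the control values lay wholly apart from the inflamed ones, where 31.7% of all genes did so.

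Of 9 other ligands, 0 were higher, 3 lower and 6 did not pass. Gdf10, also called Bmp3b, was at 6.26 to 7.08 in the controls and at 4.72 to 5.69 in the inflamed colons, and fell by 1.33 (adjusted p 0.000585). Bmp6 was at 5.47 to 5.97 and at 4.51 to 5.22, and fell by 0.73 (adjusted p 0.00215). Bmp8a, named because it was the last of the 3, fell by 0.39 (adjusted p 0.0167), and its groups overlapped.

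Of 10 other receptors and co-receptors, 0 were higher, 3 lower and 7 did not pass. The type II receptor Acvr2a was at 9.19 to 9.60 in the controls and at 8.67 to 9.04 in the inflamed colons, and fell by 0.52 (adjusted p 0.00147). Its second probe set differed by -0.05 and did not pass. The co-receptor Rgmb was at 8.11 to 8.40 and at 7.69 to 7.88, and fell by 0.48 (adjusted p 0.000322), with all 6 of its probe sets below 0 and 5 of them called. Rgma, the remaining one, fell by 0.27 (adjusted p 0.0366). Bmpr2, the type II receptor most closely tied to BMP ligands, differed by -0.22 with an adjusted p of 0.0613, which was 0.0125 without severe replicate 1. Its other probe sets differed by 0.17 and 0.06 and did not pass. Over the 22 alternatives described below, its difference ran from -0.27 to 0.0025 and its adjusted p from 0.0125 to 0.98.

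Of 6 Smad proteins, 1 was higher, 2 lower and 3 did not pass. Smad6, an inhibitory Smad that BMP signalling itself induces, was at 7.74 to 7.84 in the controls and fell by 0.67 (adjusted p 0.00546). It was at 6.48, 6.95 and 7.32 in the severe and at 7.48, 7.15 and 7.29 in the moderate colons, so that all inflamed colons were below all controls. Smad5, which carries the BMP signal, fell by 0.43 (adjusted p 0.0029), but 1 of its 3 probe sets was called higher, by 0.36. Smad4, the partner of all signalling Smads, rose by 0.43 (adjusted p 0.0154), and its adjusted p was 0.0511 without control replicate 3. Its groups overlapped, and moderate colons alone did not pass against control (adjusted p 0.113). Of its other probe sets, 1 was called higher, by 0.39, and 1 differed by 0.20 and did not pass. Smad7, the other inhibitory Smad, differed by 0.02 with an adjusted p of 0.916.

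Of 16 other antagonists and modulators outside the cell, 3 were higher, 4 lower and 9 did not pass. Bmper, a secreted BMP-binding protein, was at 4.16 to 4.73 in the controls. It was at 6.36, 5.31 and 5.38 in the severe colons and at 4.63, 5.53 and 4.85 in the moderate ones, with 1 moderate colon inside the control range. Bmper rose by 0.90 (adjusted p 0.0204), and this call ended without control replicate 2 (adjusted p 0.0626). Chrdl2, a relative of Chrdl1, rose by 0.62 (adjusted p 0.00864) with overlapping groups, so that the 2 chordin-like genes had opposite signs. Chrd, which encodes chordin, rose by 0.33 (adjusted p 0.0205, and 0.069 without control replicate 2). Against control, severe colons alone did not pass for Chrdl2 (adjusted p 0.0546) or Chrd (0.101), nor moderate colons alone for Bmper (0.154). The other severity class passed for each of these genes. Crim1, a membrane protein that binds BMPs, was at 8.09 to 8.35 in the controls and at 6.54 to 7.57 in the inflamed colons, and fell by 1.10 (adjusted p 0.000383). Nbl1, an antagonist of the family of Grem1, fell by 0.61 (adjusted p 0.000448). Twsg1 and Dand5, named to complete the count, fell by 0.50 and 0.28, but the other 3 probe sets of Twsg1 did not pass, with differences of -0.07, -0.08 and 0.25. Nog, which encodes noggin, was at 4.09 to 4.24 over all 10 colons and differed by 0.04 (adjusted p 0.58).

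Of 6 proteases that cut ligands or antagonists, 1 was higher, 2 lower and 3 did not pass. Furin, the convertase that cuts BMP precursors, was at 7.04 to 7.10 in the controls and at 7.40 to 8.15 in the inflamed colons, and rose by 0.64 (adjusted p 0.00203). Its relative Pcsk5 was at 6.55 to 7.09 and at 4.37 to 5.97, and fell by 1.84, or 3.59-fold (adjusted p 0.000472), and Pcsk6 fell by 0.48 (adjusted p 0.000858). The 3 convertases thus did not move in 1 direction.

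Of 6 regulators inside the cell or at its membrane, 1 was higher, 2 lower and 3 did not pass. Bambi, a decoy receptor without a kinase that dampens the signal, was at 6.85 to 7.39 in the controls and at 5.58 to 6.54 in the inflamed colons, and fell by 1.14 (adjusted p 0.000321). Skil, which represses Smad-driven transcription, was at 10.76 to 10.92 and at 11.18 to 11.70, and rose by 0.69 (adjusted p 0.000227). Smurf2, a ubiquitin ligase for Smads and receptors, fell by 0.25 (adjusted p 0.0176), while another of its probe sets was called higher by 0.28, so no direction is given for the gene. Its adjusted p was 0.0582 without control replicate 1 and 0.0638 without control replicate 2.

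Of 8 other target genes, 0 were higher, 2 lower and 6 did not pass. One of the 2 was Id4. The other was Tbx3, which fell by 0.47 (adjusted p 0.031), and 9 of the 22 alternatives ended this call, among them leaving out control replicate 2 (adjusted p 0.0821), control replicate 4 (0.105), severe replicate 2 (0.0617), moderate replicate 1 (0.0558) or moderate replicate 3 (0.058).

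**Figure D4:**
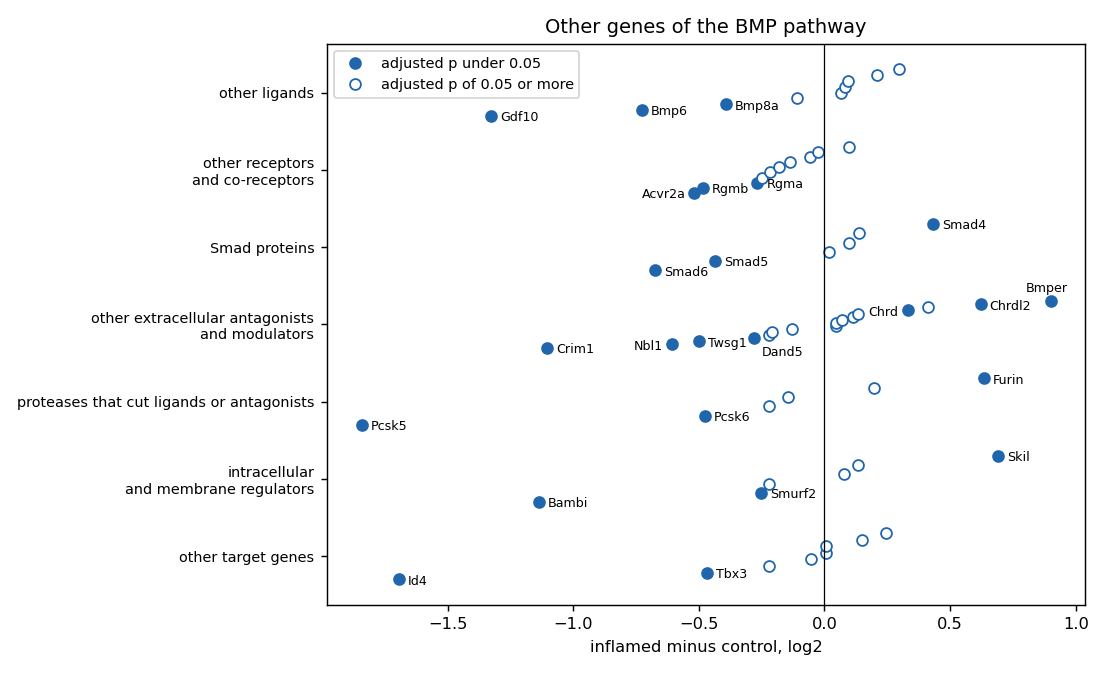
Each point is 1 of the 61 other pathway genes, placed by role on the y axis and by its inflamed minus control difference in log2 units on the x axis, filled and named where the adjusted p was under 0.05. The named genes run from Pcsk5 at -1.84 to Bmper at 0.90, and 18 of 24 lie below 0. Of the calls over all genes, 46.7% lie above 0.

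Markers of the cell types in the colon moved along with these genes. All 12 smooth muscle markers fell, with a median of -1.58, and the largest differences were those of Myl9, which fell by 2.42, and Myh11, which fell by 2.27. The mean log2 level of that list was 10.68 to 11.07 in the controls and 8.84 to 9.64 in the inflamed colons. Of 12 fibroblast markers 1 rose, Thy1 by 0.81, and 5 fell, among them Cd34 by 1.83 and Dpt by 1.79. The median of the 12 was -0.50. The fibroblast list stood at 9.20 to 9.54 in the controls, at 9.66, 8.30 and 8.82 in the severe colons and at 8.74, 8.49 and 8.82 in the moderate colons. The severe colon with the highest fibroblast level, 9.66, also had the highest inflamed value of Bmp4. The one with the lowest, 8.30, had the lowest value of Bmp4 and of Grem1. Other values went the other way. The colon at 9.66 lay above every control in the fibroblast list, yet its Bmp4 of 7.80 lay below every control. Its list level is a mean of markers that went both ways. Thy1 (8.51) and Col1a1 (8.71) were above every control in that colon, and Dcn (11.49) and Lum (9.17) below every control. It is therefore not a plain measure of fibroblast content. The highest Grem1, 9.84, was in the severe colon with a fibroblast level of 8.82, below every control. Of 6 markers of telocytes and fibroblasts near the crypt top, cells known to make BMPs, 1 fell, Sox6 by 0.87, and 5 did not pass. The median of that list was 0.11, and in severe colons Wnt5a was called higher, by 0.74 (adjusted p 0.0298). Of 10 endothelial markers 5 fell, with differences of -1.67 for Tek and -1.59 for Emcn, and of 8 markers of enteric neurons and glia 5 fell, with differences of -2.06 for Snap25 and -1.54 for Uchl1. The called genes of the smooth muscle, endothelial and neuronal lists, and 5 of the 6 called fibroblast markers, were lower. Bmp4, Chrdl1, Gdf10 and Id4 were lower as well, and so were other genes such as Bmp2 and Crim1. The telocyte list as a whole was not lower. Grem1, known from the muscle layers and connective tissue, was not lower either, with a difference of 0.38 that did not pass. The part of these cells in those results was not tested.

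Markers of white blood cells moved in the direction of Id2, a gene that innate lymphocytes and myeloid cells also use. Of 8 markers of innate and cytotoxic lymphocytes 7 rose, with a median of 2.83, Gzma by 5.83 and Gzmb by 4.62. That list stood at 4.54 to 4.69 in the controls and at 7.004 to 7.907 in the inflamed colons. Of 8 T cell markers 7 rose, Cd3g by 4.36 and Cd3d by 2.48. Of 10 macrophage and monocyte markers 9 rose, Lyz2 by 2.51 and Fcgr3 by 2.43, and of 9 neutrophil markers 8 rose, S100a8 by 7.66 and S100a9 by 6.34. The T cell list was highest in a severe colon, at 7.15, and in a moderate colon, at 7.06, and these were the colons with the 2 highest values of Id2. The list of innate and cytotoxic lymphocytes was instead highest, at 7.907, in the severe colon whose Id2 of 10.09 was the third highest, followed by 7.83 and 7.79 in the other two. The part of these cells in the rise of Id2 was not tested.

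The 13 measured pan-epithelial markers did not shift as a whole. Among them 3 rose and 1 fell, with a median of 0.10, and the mean level of the list was 11.99 to 12.08 in the controls and 11.95 to 12.18 in the inflamed colons. Elf3 rose by 0.38 and Grhl2 fell by 0.31. Most of these probe sets were bright, Krt8 at 14.31 and Epcam at 13.85, and bright probe sets can understate a difference. The part of epithelial content in the value of Bmp2 was not tested.

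**Figure D5:**
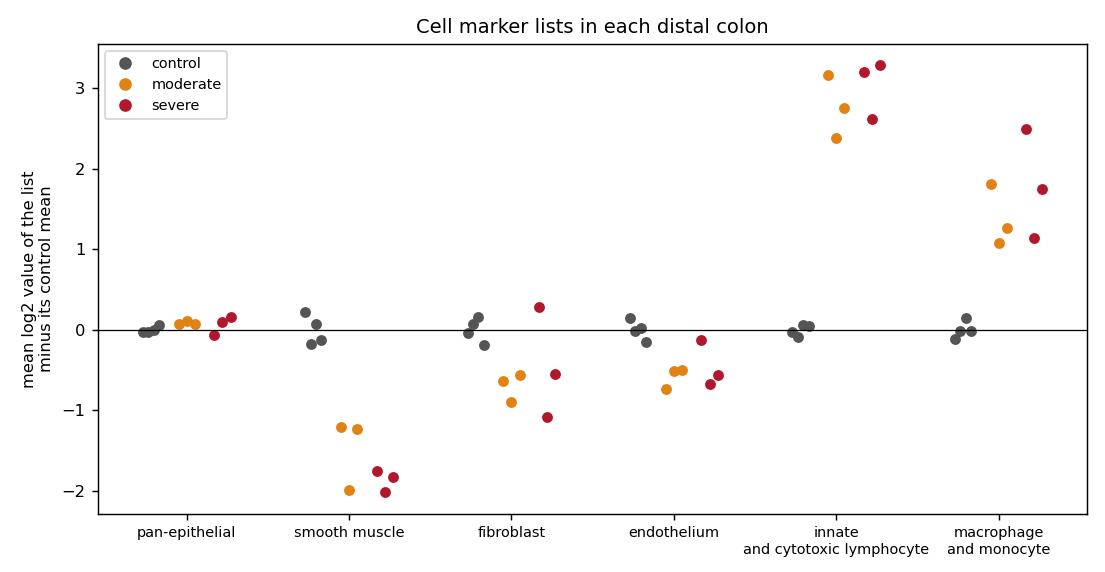
The mean log2 value of each of 6 marker lists, minus its mean in the 4 controls, is plotted for each of the 10 colons, 1 point per mouse. All inflamed colons lie below the controls for smooth muscle and above them for innate and cytotoxic lymphocytes and macrophages, while 1 severe colon lies above the controls for fibroblasts.

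The genes whose pattern over the 10 arrays was most like that of each member were found by Pearson's r among 15353 genes above the mean lower quartile. With 2 well-separated groups, a gene that differs between them correlates with all others that do, and these values are a description only. Bmp2 was most like Slc25a36, Osbpl6 and Slc46a1, with r of 0.978, 0.977 and 0.973. Bmp4 was most like Dcn (0.972), the fibroblast marker that codes for decorin, Thbd (0.970) and Rnd2 (0.969). Bmpr1a was most like Plekhh2 (0.988), Rgs5 (0.981) and Airn (0.980), and Chrdl1 most like Atf2 (0.984), Coa6 (0.979) and Zbtb44 (0.975). Id2 had the closest partners of any member, Tmem74b (0.996), Pik3r6 (0.995) and Slfn8 (0.991). For the members that did not pass, the order of single arrays sets the result. Grem1 was most like Meaf6 (0.961), Spns2 (0.950) and Thada (0.930), and Bmp7 most like Col13a1 (0.966), Ccr6 (0.922) and Prr29 (0.892). Id1 was most like Slc22a26 (0.903), Slc6a20b (0.891) and 2200002J24Rik (0.876), and Id3 most like Fbxw10 (0.936), Atg14 (0.877) and Runx3 (0.863).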

How the data were processed

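Total RNA of 10 distal colons was hybridised to Affymetrix mouse arrays, 1 array per mouse. The labels name Trizol for the extraction, and the study's methods name a Qiagen kit. The deposited log2 values per probe set were made by the authors with RMA in Affymetrix Expression Console. RMA subtracts background, makes the arrays share 1 distribution and summarises the probes of a set. Versions of both are not given in the sources used here. Scan dates and detection calls were not analysed here. RMA draws low values together and has no zero, so differences of dim probe sets are understated. Array medians were 5.36 to 5.40 and lower quartiles 3.82 to 3.92, and arrays correlated at 0.989 to 0.996 (Pearson) within control or inflamed and at 0.963 to 0.983 across them. No 2 arrays held the same values, 0 values were missing, and 0 columns of values could not be mapped to a sample. For arrays, their number limits the precision: 4 control, 3 severe and 3 moderate. The titles call these biological replicates.

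Probe sets were named through the annotation given for the platform. Of 45101 probe sets, 34945 had 1 gene, 932 several and 9160 none, and 64 were controls. Of 18193 genes, 9010 had more than 1 probe set, and the brightest on average stood for the gene. Of 34741 symbols checked against RefSeq by gene identifier, 0 differed. Two-sided tests were made with lmFit and eBayes of limma 3.58.1 under R 4.3.3. P-values were adjusted by Benjamini-Hochberg over all genes, or over all probe sets where those are the features. One model of 2 groups set inflamed against control, and one of 3 groups with a shared spread held the severity classes. The procedure was tested on simulated data. Alternatives covered how probe sets make a gene's value, array scaling, dim genes, the variance model and weights for arrays. They also covered an unpaired t-test, the groups in the model, the replicate number as a block and the loss of each array in turn. The study names an unpaired t-test for single marker genes of inflamed against noninflamed colons. Its use for the severity classes and its adjustment over all genes were added here. Figures used matplotlib 3.10.9 in Python 3.11.15.

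The members and lists were chosen with earlier results of these data known, so counts over them describe the lists and are not independent support. By rule the text names all members, the 2 largest rises and falls per pathway role past the threshold, Nog, Chrd, Smad6, Smad7, Bambi and Bmpr2, the E proteins, the 2 largest differences per marker list and the 3 genes most like each member. One gene of the rule is not reported here. Others named complete a count or were chosen after their values were seen. Promoter windows are those of the RefSeq table for GRCm38.p6, which held 5 of the 9 members, and Bmp2, Bmp7, Chrdl1 and Id1 had no entry.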

Additional observations from a re-analysis of the deposited data

Results flagged for a closer look

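Among 94 groups of values examined for a single array that stands apart from the rest of its group, 3 were marked, where chance alone marks about 1 in 20. For Bmpr1a, 1 of the probe sets that did not pass had control replicate 1 high, at 8.717 with the nearest other control at 8.470, and moderate replicate 2 low among the inflamed colons, at 8.234 with the nearest at 8.394. For Nog, control replicate 4 was high, at 4.222 with the nearest at 4.110. None of the probe sets used for the 9 members was marked. Severe replicate 2, without which Grem1 passed, was thus not marked for Grem1.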

How the results depend on the processing

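The results of the members, of the pathway genes named by rule and of the E proteins were recomputed under 22 alternatives. Those of Bmp8a, Rgma, Twsg1, Dand5 and the cell markers were not. The calls of Bmp2, Chrdl1 and Id2 in inflamed against control held under all 22, with differences of -1.18 to -0.96, -1.62 to -1.24 and 0.88 to 1.20, as did that of Bmp4, at -0.82 to -0.62. No called value changed sign. With every probe set as a feature, 12522, 10898 and 9308 features were called for inflamed, severe and moderate against control. By the unpaired t-test 0 members were higher in moderate colons, where Id2 had an adjusted p of 0.0505 and Bmpr1a 0.0524. With 1 array left out in turn, the members higher numbered 1 to 2 in inflamed and 1 to 2 in severe colons, the upper count without severe replicate 2, and the members lower in moderate colons 2 to 4, the lower count without moderate replicate 2. Features called between severe and moderate ran from 0 to 20, with 20 without moderate replicate 2, 5 without severe replicate 2 and 1 without moderate replicate 1. Repeated centring or quantile normalization left 48.8% and 48.6% of calls higher, against 46.7%.

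For samples with the same replicate number, the correlation of their deviations was -0.078 to 0.293, and 4 of 9 arrays were closest to their own number. The titles do not say whether a number stands for a shared batch, and with so few arrays these values cannot settle it. With the replicate block, 6625 genes were called in inflamed against control, with the same 1 member higher and 4 lower. Bmper (adjusted p 0.0783) and Tbx3 (0.123) were not called with the block, and Tcf4 (0.0429) was. Bmpr2 was called with array weights (0.0388), and Bmper was not by the unpaired t-test (0.0589). The mean over probe sets ended the calls of Smurf2 (0.532) and Tbx3 (0.48). Dim probe sets, such as 3 of Chrdl1 and 1 each of Bmp7 and Bmpr1a, limit what can be read from them.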
